A study of Gallus gallus with 10 samples.

Results

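The intraflagellar transport B (IFT-B) complex is described here through 10 of its genes, IFT74, IFT81, IFT22, IFT27, IFT46, IFT52, IFT88, IFT57, IFT80 and IFT172, in whole hearts of male and female chicken embryos. The members were all probe sets that the platform annotation gives to these genes, 20 of the 38535 on the array. The complex was chosen by a measured value, the male over female difference of IFT74, which was the third largest of 492 tested genes on the Z chromosome in the same arrays. That difference is therefore given below as a description, with no test. The other 9 genes, called the partners of IFT74, were added because they belong to the complex.

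The study hybridised RNA from 5 pools of male hearts and 5 pools of female hearts, lettered A to E in each sex, to 10 single-colour arrays. The labels name the sex and the whole heart, and no treatment beyond harvest. Breed, embryonic age and the number of embryos per pool are not stated there, nor whether pools were collected separately, so a p-value reflects only how far pools of a sex differed, and some of that may be technical. Values are intensities on a linear scale as deposited, scaled to 1 common level, and the array median was 638 ± 33.4 for male and 661 ± 53.6 for female pools (SD, n = 5 each). Each difference is the male mean less the female mean of log2(intensity + 16), where the added 16 makes the change of a dim probe set look smaller than it is. Cardiomyocyte markers were bright in both sexes: TNNT2, encoding cardiac troponin T, lay at 175298 to 226702 in males and 185884 to 240896 in females. The log2 difference between the 3′ and 5′ actin control probe sets, a measure of RNA integrity, was 0.70 ± 0.07 for male and 0.68 ± 0.10 for female pools (SD, n = 5 each).

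Intraflagellar transport carries cargo along the microtubules of cilia. IFT-B links to kinesin-2 for the outward journey, and IFT-A links to dynein-2 for the return. IFT-B has a core, built around the IFT74 and IFT81 coiled-coil pair with IFT22, IFT27, IFT46, IFT52 and IFT88, and a peripheral set that includes IFT57, IFT80 and IFT172. In mouse embryos, primary cilia are needed for Hedgehog signalling and left-right asymmetry, and loss of Ift88 or Ift172 disturbs heart development. In birds the male carries a pair of Z chromosomes and the female a Z and a W. IFT74 is annotated on Z, while its 9 partners are annotated on chromosomes 1, 3, 9, 15, 19, 20 and 24.

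IFT74, the coiled-coil subunit that with IFT81 forms a tubulin-binding module, stood at 2093, 2402, 3470, 2142 and 2455 intensity units in male pools A to E, against 1390, 1250, 968, 950 and 962 in female pools A to E. Every male pool lay above every female pool, and male pool C was the highest of all. Male pools averaged 2512 ± 558 and female pools 1104 ± 203 (SD, n = 5 each). The difference was 1.17 ± 0.16 (SE) on the log2 scale, or 2.25-fold with a 95% interval of 1.77 to 2.85. Neither the SE nor the interval allows for the choice of IFT74 by this same difference, so they describe spread and test nothing. The median Z gene was 1.32-fold higher in males, and 40.9% of Z genes were called higher in males by the same fit. Pools of the sexes also did not overlap for the nearby Z genes PLAA, CAAP1 and C9orf72, and overlapped for TEK and LPAR1. The share of Z genes without overlap was not counted. A single probe set reads IFT74 on this array, so no second probe set bears on the value. In whole hearts, fewer cells of a type and less RNA per cell cannot be told apart.

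None of the 9 autosomal partners passed the threshold between the sexes. With limma and Benjamini-Hochberg adjustment over all 23063 tested probe sets, 0 of 9 had an adjusted p under 0.05. An unadjusted p under 0.05 was found for 1 of 9, where 7.25% of autosomal genes had one. The fit called 2.23% of all 10284 tested genes and 0.164% of autosomal genes, so a count of 0 is close to the background. Partner differences ran from -0.15 for IFT46 to 0.23 for IFT57. Of the partners, 6 were above 0 and 3 below 0, where 41.5% of autosomal genes were above 0. The partner median was 0.07, beside -0.03 for 9765 autosomal genes and 0.40 for Z genes. Each partner's 95% interval ended below a doubling, and for 7 of the 9 it ended below the median Z difference. The exceptions were IFT81, whose interval reached 0.50, and IFT57, whose interval reached 0.45. Arrays of both sexes overlapped for each partner, where 1.61% of autosomal genes had arrays that did not overlap.

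**Figure D1:**
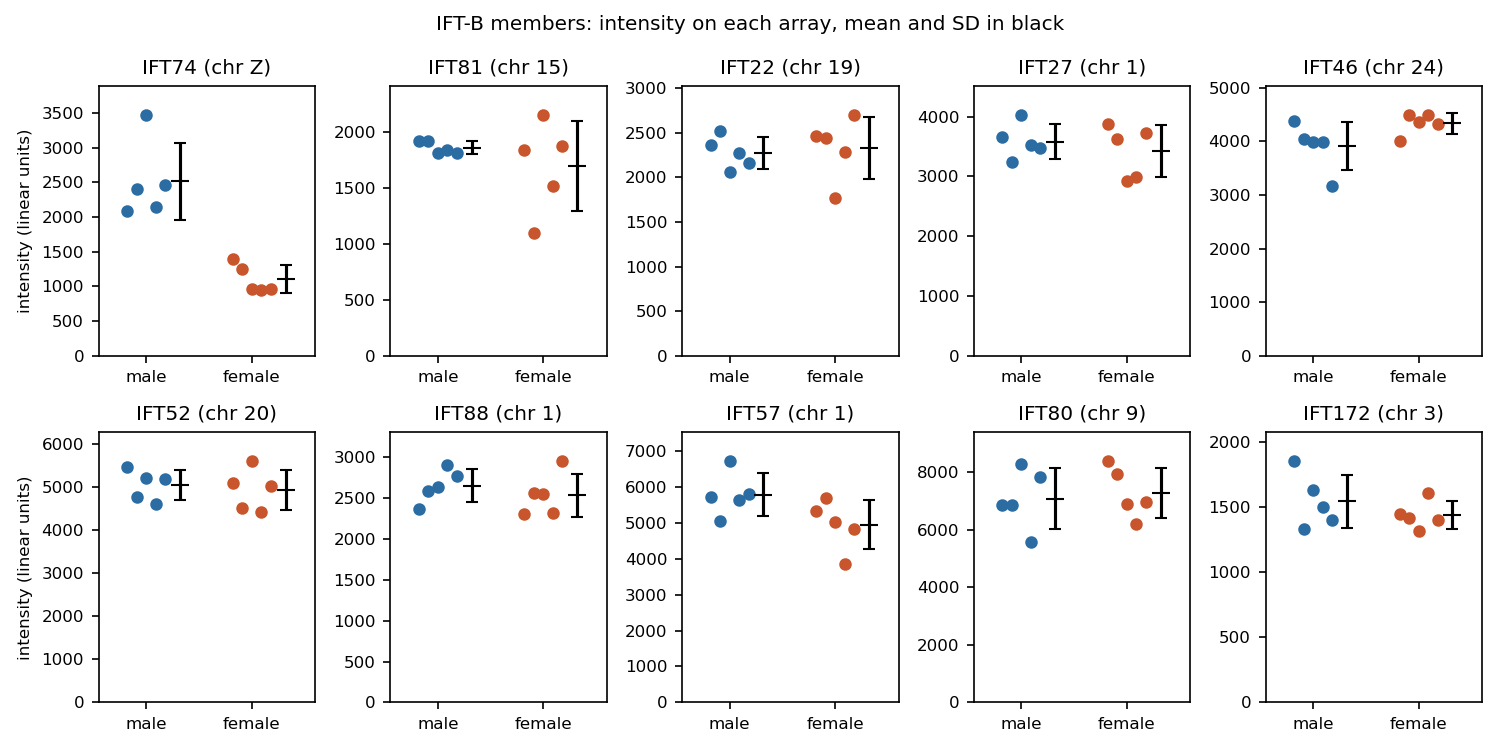
Intensity (linear units, y axis from 0) of the probe set read for each IFT-B gene in male pools A to E (left of each panel) and female pools A to E (right), with the mean and SD of each sex in black. For IFT74 the male pools sit between 2093 and 3470 and the female pools between 950 and 1390, and in the other 9 panels the sexes overlap.

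In the core of the complex, IFT81, the direct binding partner of IFT74, read 1919, 1918, 1814, 1836 and 1808 in male pools A to E, against 1837, 1098, 2151, 1515 and 1871 in female pools A to E. The male pools were close together at 1859 ± 55.2, and the female pools were spread at 1694 ± 402 (SD, n = 5 each), with female B the lowest array. The difference was 0.17 ± 0.16 (limma adjusted p = 0.823), and 0.022 without female B. A second IFT81 probe set, at 590 ± 94.0 in males and 540 ± 171 in females, gave 0.17 ± 0.26. Both IFT81 estimates had an interval that included 0.

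IFT22, a small GTPase-like subunit that binds the IFT74 and IFT81 pair, was at 2057 to 2524 in males and 1768 to 2699 in females. Its difference was -0.02 ± 0.12 (limma adjusted p = 0.977). IFT27, a small GTPase that pairs with IFT25, was at 3234 to 4029 in males and 2925 to 3877 in females, a difference of 0.07 ± 0.10. For both GTPases the female range was at least as wide as the male one and contained most of it.

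IFT46 stood at 4377, 4050, 3996, 3987 and 3164 in male pools A to E, against 4005, 4491, 4358, 4492 and 4322 in female pools A to E. Of its 5 female pools, 4 lay above 4 of the 5 male pools, and male E was the lowest array. IFT46 had the most negative difference among the partners, -0.15 ± 0.09, and did not pass (limma adjusted p = 0.675).

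IFT52, a scaffold of the core, averaged 5048 ± 347 in males and 4925 ± 473 in females. IFT52 has 3 tested probe sets, with differences of 0.04 ± 0.08, 0.05 ± 0.10 and 0.07 ± 0.43. The third was dim and ran from 354 to 923 in males and 165 to 1214 in females. IFT88, a tetratricopeptide-repeat subunit known for the polycystic kidney phenotype of its mouse mutant, averaged 2651 ± 204 in males and 2535 ± 262 in females. Its 3 tested probe sets gave 0.07 ± 0.10, -0.18 ± 0.18 and 0.03 ± 0.20. Probe sets of IFT88 therefore did not share a sign, and each of the 3 intervals included 0.

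In the peripheral set, IFT57 stood at 5705, 5062, 6709, 5636 and 5801 in male pools A to E, against 5329, 5692, 5029, 3862 and 4827 in female pools A to E. The highest array of this coiled-coil subunit was male C and the lowest female D. The difference was 0.23 ± 0.10, the largest of the partners, with an unadjusted p of 0.0422 and a limma adjusted p of 0.523. A second IFT57 probe set gave -0.04 ± 0.15, and the mean over both probe sets was 0.10 (limma adjusted p = 0.843).

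IFT80 was at 5580 to 8294 in males and 6192 to 8369 in females, a difference of -0.04 ± 0.11. Mutations of its human counterpart cause a skeletal ciliopathy. A second IFT80 probe set gave 0.10 ± 0.17. IFT172, the largest peripheral subunit, was at 1329 to 1850 in males and 1315 to 1607 in females, a difference of 0.09 ± 0.13. Its second probe set was dim and gave -0.22 ± 0.32. That probe set passed the filter on dim probe sets through its female pools, which averaged 402. Its male pools averaged 357, under the filter level of 363, so the difference is given without a test.

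Across the 17 tested partner probe sets, 11 differences were above 0 and 6 below 0, from -0.22 to 0.23, and 0 were called by limma where 1.76% of all probe sets were called. An unadjusted p under 0.05 was found for 1 of them, that of IFT57. Of autosomal genes, 41.5% were above 0 and 7.25% had an unadjusted p under 0.05. Of the 6 partners with more than 1 tested probe set, 4 had probe sets of both signs, namely IFT88, IFT57, IFT80 and IFT172. A further 2 partner probe sets, 1 of IFT81 and 1 of IFT27, were among the dimmest 40% and were not tested. The IFT81 one, just outside that limit, averaged 301 in males and 407 in females. The second IFT172 probe set, just inside it, averaged 357 in males and 402 in females. That probe set passed the filter through its female pools, so its difference is a description only. It is counted in the 17, in the 6 below 0 and among the 4 partners with both signs. It gave the only negative difference of IFT172 and the lowest of the 17. The next lowest was -0.18, of an IFT88 probe set. No member lost all of its probe sets to the filter.

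**Figure D2:**
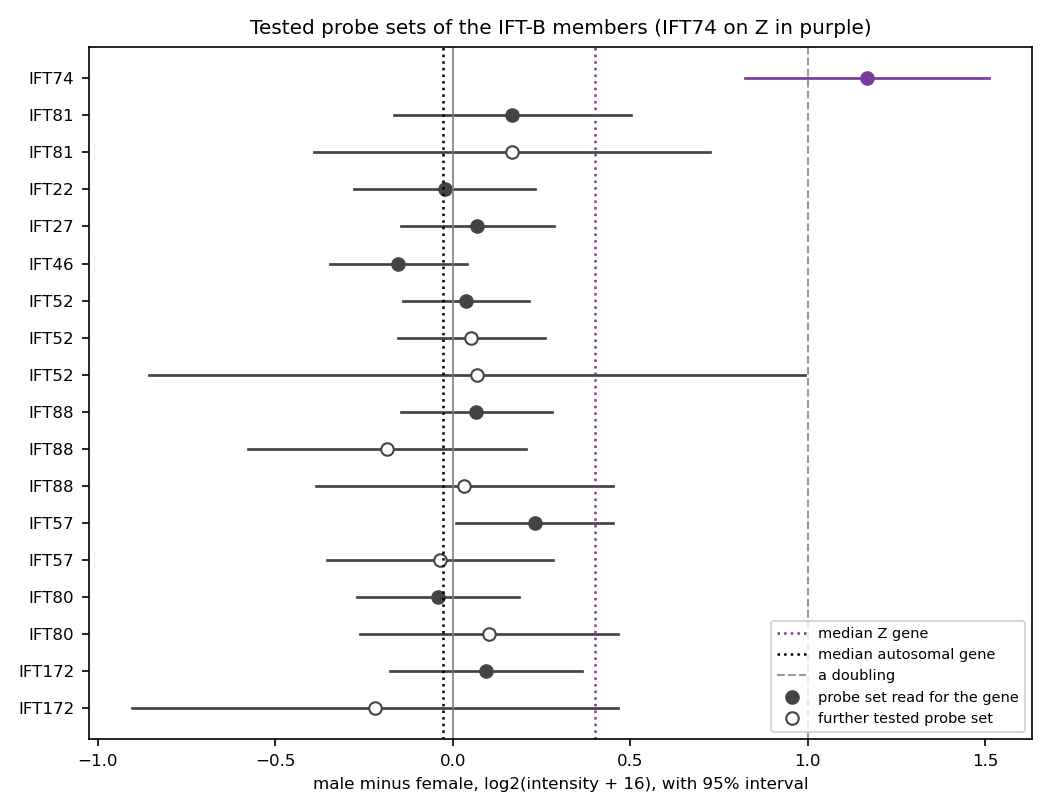
Male minus female difference (x axis, log2(intensity + 16)) with its 95% interval for the 18 tested probe sets of the IFT-B members, filled where the probe set was read for its gene. IFT74 sits at 1.17, and the 17 partner probe sets lie between -0.22 and 0.23 with intervals that end below a doubling. For the third IFT52 probe set the interval ends only just below it, at 0.99. The lowest of the 17, the second IFT172 probe set, passed the filter through its female pools. The interval of IFT74 does not allow for its choice by this difference.

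Set against its partners on the same array, with each gene expressed as the deviation from its own mean over the 10 arrays, IFT74 lay above the partner mean by 0.27, 0.57, 0.98, 0.40 and 0.59 in male pools A to E. In female pools A to E it lay at -0.28, -0.35, -0.71, -0.65 and -0.81. The partner mean itself moved little, from -0.02 to 0.09 in males and from -0.13 to 0.05 in females. The median Z gene moved from 0.21 to 0.23 in males and from -0.23 to -0.17 in females. These values restate the difference that led to the choice of the complex and were not tested.

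Differences between pools of the same sex were not the value used to choose the complex. Male C bears on both, since the IFT74 difference was 1.05 without it. Pools of the same sex were compared by an exact permutation test within sex over 14400 arrangements, two-sided. The test set IFT74 against each of the 9 partners, and it was not among the planned tests. Over the 10 arrays, the strongest relation was with IFT80 (Pearson r = 0.83, exact p = 0.00903, p = 0.0813 adjusted over 9 tests; Spearman rho = 0.79, exact p = 0.0135, adjusted 0.107). IFT57 followed (r = 0.69, exact p = 0.0383, adjusted 0.172; rho = 0.73, exact p = 0.0238, adjusted 0.107). IFT27 had r = 0.64 (exact p = 0.0699, adjusted 0.210; rho = 0.47, exact p = 0.162, adjusted 0.485). None of the 9 passed after adjustment. Without male C and female A, the arrays farthest from the median of IFT74, r fell to 0.72 for IFT80, 0.53 for IFT57 and 0.26 for IFT27.

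IFT81, which pairs with IFT74 in the complex, had r = -0.27 (exact p = 0.506, adjusted 0.916; rho = -0.20, exact p = 0.530, adjusted 0.895), or -0.73 without the same arrays. Its r was -0.059 without female B and -0.61 with both tested probe sets averaged. For the remaining 5 partners r lay between -0.24 and 0.04. The within-sex deviations of IFT80, IFT57 and IFT27 also ran against those of the array median intensity, with r of -0.72, -0.66 and -0.68 as descriptions over the same 10 arrays, and IFT74 had -0.39. With the log2 difference between the 3′ and 5′ GAPDH control probe sets, a measure of RNA integrity, r was 0.52 for IFT74, 0.60 for IFT80, 0.38 for IFT27 and 0.12 for IFT57. With the 3′ and 5′ actin difference, r was lower for IFT74 (0.26), IFT80 (0.33) and IFT27 (0.10), and 0.13 for IFT57. The part of the array median and of RNA integrity in these relations was not tested.

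**Figure D3:**
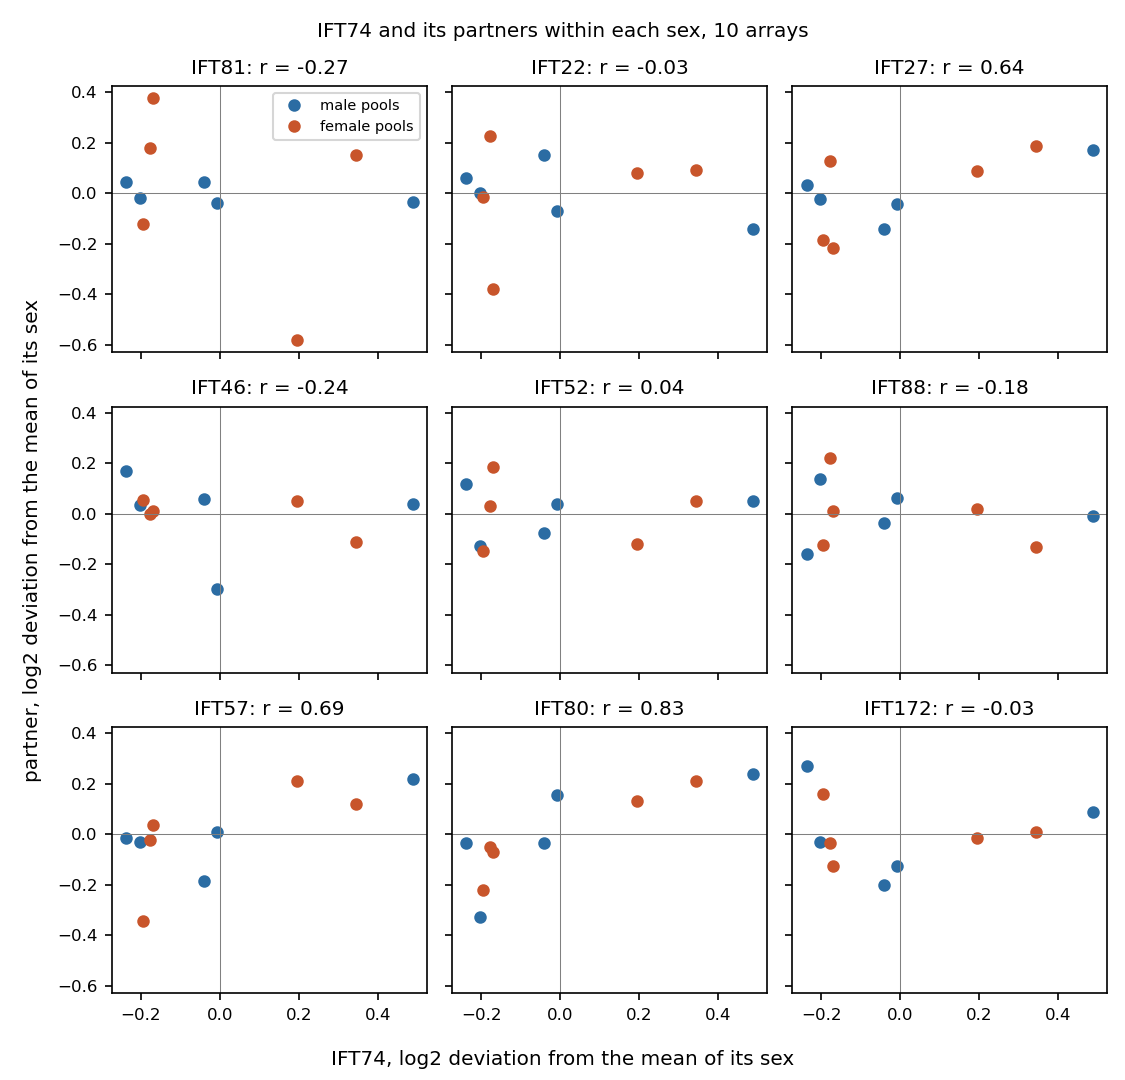
Log2 deviation of each partner (y axis) against that of IFT74 (x axis) from the mean of its own sex, 5 male pools and 5 female pools in each panel. IFT80, IFT57 and IFT27 rise along the IFT74 axis with r of 0.83, 0.69 and 0.64, and the other 6 panels have r between -0.27 and 0.04.

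The genes whose within-sex pattern was most like that of IFT74 over the 10 arrays, out of all tested genes, were WDR36 on Z (r = 0.92), PDK1 on chromosome 7 (r = 0.92) and MLLT1 on chromosome 28 (r = 0.91). They were picked for these values among 10284 tested genes, so high values come partly from the choice and no test is attached. Male C, the highest array of IFT74, also stood apart for MLLT1, at 8133 against 7028 to 7236 in the other male pools. WDR36, which acts in ribosome biogenesis, averaged 17231 in males and 9013 in females, a difference of 0.93 ± 0.07 (limma adjusted p = 6.57e-07). PDK1, a pyruvate dehydrogenase kinase gene, differed by 0.05 ± 0.06 and MLLT1, of the super elongation complex, by 0.08 ± 0.07, and neither passed (limma adjusted p = 0.852 and 0.820). Across all other tested genes the median r with IFT74 was -0.01, with an interquartile range of -0.30 to 0.27.

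On Z, the genes beside IFT74 differed widely in their own male minus female values. Of the 5 tested genes on each side, 3 of 10 passed with the male pools higher and 0 with the female pools higher, and the median was 0.19, against 40.9% of Z genes called and a Z median of 0.40. PLAA, the nearest tested gene on one side and a ubiquitin-binding factor, read 7184, 7161, 8754, 8027 and 7450 in male pools A to E, against 4760, 6134, 4898, 4736 and 5076 in female pools A to E. Its arrays did not overlap between the sexes, as also for CAAP1 and C9orf72, and the difference was 0.59 ± 0.09 (limma adjusted p = 0.000758). CAAP1, an inhibitor of apoptosis that follows PLAA, differed by 0.83 ± 0.16 (limma adjusted p = 0.0119).

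TEK, the nearest tested gene on the other side, encodes the angiopoietin receptor of endothelial cells. It read 4073, 3736, 4063, 4016 and 3651 in male pools A to E, against 3618, 3485, 3259, 3179 and 3810 in female pools A to E. Female E lay within the male range, and the difference of 0.17 ± 0.08 did not pass (limma adjusted p = 0.549). C9orf72, of autophagy and membrane traffic, is the tested gene after TEK and differed by 0.82 ± 0.09 (limma adjusted p = 6.01e-05). LRRC19, annotated between IFT74 and TEK, was not tested.

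The remaining 6 near neighbours did not pass. They were LINGO2 at -0.30 ± 0.33, CORO2A at 0.06 ± 0.32, TBC1D2 at 0.46 ± 0.21 (0.22 with its probe sets averaged), ELAVL2 at 0.16 ± 0.29, TMEM215 at 0.11 ± 0.24 and LPAR1 at 0.21 ± 0.19. Extended to 10 tested genes on each side, 8 of 20 were called higher in males and the median was 0.23. IFT74 had a higher estimate than each of these 20 genes. The complex was chosen for the large difference of IFT74, so this order was nearly set by the choice.

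**Figure D4:**
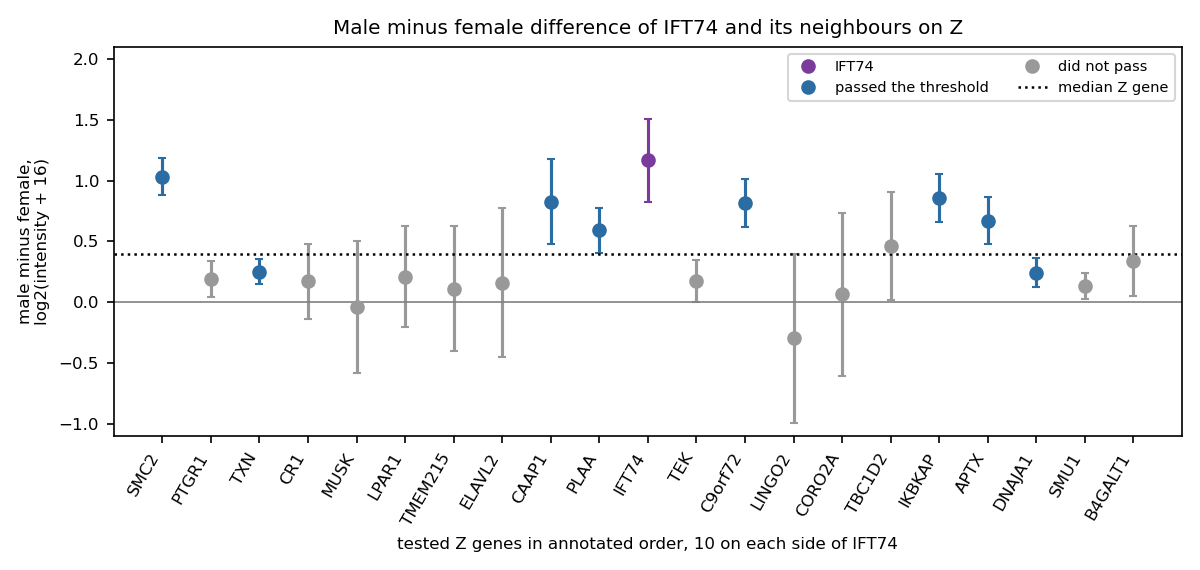
Male minus female difference (y axis, log2(intensity + 16)) with its 95% interval for IFT74 and the 10 tested Z genes on each side, in annotated order (x axis, not to distance). IFT74 sits at 1.17 between PLAA at 0.59 and TEK at 0.17, and 8 of the 20 neighbours passed the threshold. For IFT74 the interval does not allow for its choice by this difference.

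The rest of the ciliary machinery was read through lists. They covered other IFT-B subunits, IFT-A, motors, the BBSome with its partners, the transition zone, the basal body, the Hedgehog pathway and ciliary transcription factors. Of 85 listed genes, 72 had a probe set and 67 were tested. By limma 0 of 67 passed, and 4 had an unadjusted p under 0.05, where 7.25% of autosomal genes did. Their median difference was -0.01, with 33 above 0 and 34 below 0, where 41.5% of autosomal genes were above 0. Counted in the 67 and in the 33 above 0 is LZTFL1, which passed the filter through its male pools and is only described.

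Among 6 other IFT-B subunits tested, HSPB11 and IFT20 had an unadjusted p under 0.05 in opposite directions. HSPB11 encodes IFT25, which pairs with IFT27. It read 2034, 1318, 2041, 1486 and 1096 in male pools A to E, against 1947, 2152, 2277, 2642 and 2211 in female pools A to E. Male A and male C lay within the female range and the other male pools below it. Its difference of -0.52 ± 0.17 had an unadjusted p of 0.00681 and did not pass (limma adjusted p = 0.224).

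IFT20, singled out after its values were seen, carries membrane proteins from the Golgi towards the cilium. It ran from 18095 to 21179 in males and from 17274 to 17699 in females, so its arrays did not overlap, as for 1.61% of autosomal genes. The difference of 0.16 ± 0.05 had an unadjusted p of 0.0109 and did not pass (limma adjusted p = 0.297). A second IFT20 probe set differed by -0.0009 ± 0.07 (limma adjusted p = 0.998).

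The return arm of the transport and its motors gave no call. For 7 tested genes of IFT-A with its adaptor TULP3, the median difference was -0.01, and the largest was TTC21B, an IFT-A subunit, at 0.22 ± 0.12 (limma adjusted p = 0.648). For 8 kinesin-2 and dynein-2 genes the median was 0.02, and the largest was the dynein-2 subunit gene WDR60 at 0.29 ± 0.24. With the mean of its probe sets WDR60 was at 0.0034.

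The list of the BBSome, a coat that carries membrane cargo on the transport trains, and its partners had a median of -0.04 over 10 genes. Its largest difference was LZTFL1, a BBSome regulator, at 0.95 ± 0.49. That gene is counted in the 10 and in their median. LZTFL1 passed the filter on dim probe sets through its male pools, which averaged 633, while its female pools averaged 283, under the filter level of 363, so the difference is given without a test. Its pools stood at 834, 231, 225, 688 and 1190 in male pools A to E and 224, 206, 404, 140 and 440 in female pools A to E, and 2 of the 5 male pools lay within the female range.

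Transition zone genes had a median of 0.04 over 13, with the scaffold gene CEP290 at 0.39 ± 0.18 (unadjusted p = 0.0472, limma adjusted p = 0.541), or 0.20 with its probe sets averaged. Basal body and ciliary GTPase genes had a median of -0.01 over 10. The largest was RAB23, a GTPase that restrains Hedgehog signalling, at 0.43 ± 0.20, while SCLT1 of the basal body, singled out afterwards, had an unadjusted p of 0.0487 at 0.32 ± 0.15. Neither passed (limma adjusted p = 0.557 and 0.545).

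Hedgehog pathway genes, whose signal passes through the primary cilium, had a median of -0.07 over 11 and no call. The largest was the coreceptor gene BOC at -0.74 ± 0.71, whose pools ran from 135 to 1302 in males and from 135 to 1675 in females. Both Z-linked genes in these lists, the Hedgehog receptor gene PTCH1 and the ciliary transcription factor gene RFX3, named for their position after the values were seen, also did not pass. PTCH1 differed by 0.18 ± 0.14 (limma adjusted p = 0.782) and RFX3 by -0.07 ± 0.17 (limma adjusted p = 0.941). RFX2, the other tested transcription factor of the list, differed by -0.25 ± 0.23.

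Markers of cells with motile cilia, another cell type, were mostly dim. Of 12 listed genes 11 had a probe set, and 9 of these were among the dimmest 40% of the array. SPAG6 and TEKT1 were tested and did not pass. TEKT1, a tektin of motile axonemes, was at 1437 to 2035 in males and 1984 to 2571 in females. Its difference was -0.37 ± 0.12 (limma, unadjusted p = 0.00884, adjusted p = 0.266), or -0.17 with its probe sets averaged. The summed intensity of the 11 markers was 3485 to 5241 in males and 4678 to 6505 in females. Most of that sum came from TEKT1, averaging 1769 in males and 2282 in females, and SPAG6, averaging 1015 and 927. The 8 cardiomyocyte markers had differences from -0.15 to -0.02, beside a median of -0.03 for autosomal genes. All 8 were below 0, where 41.5% of autosomal genes were above 0, and none was called. NKX2-5, a cardiac transcription factor gene, had the largest at -0.15 ± 0.05 (limma, unadjusted p = 0.0173, adjusted p = 0.364). Of autosomal genes, 7.25% had an unadjusted p under 0.05.

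**Figure D5:**
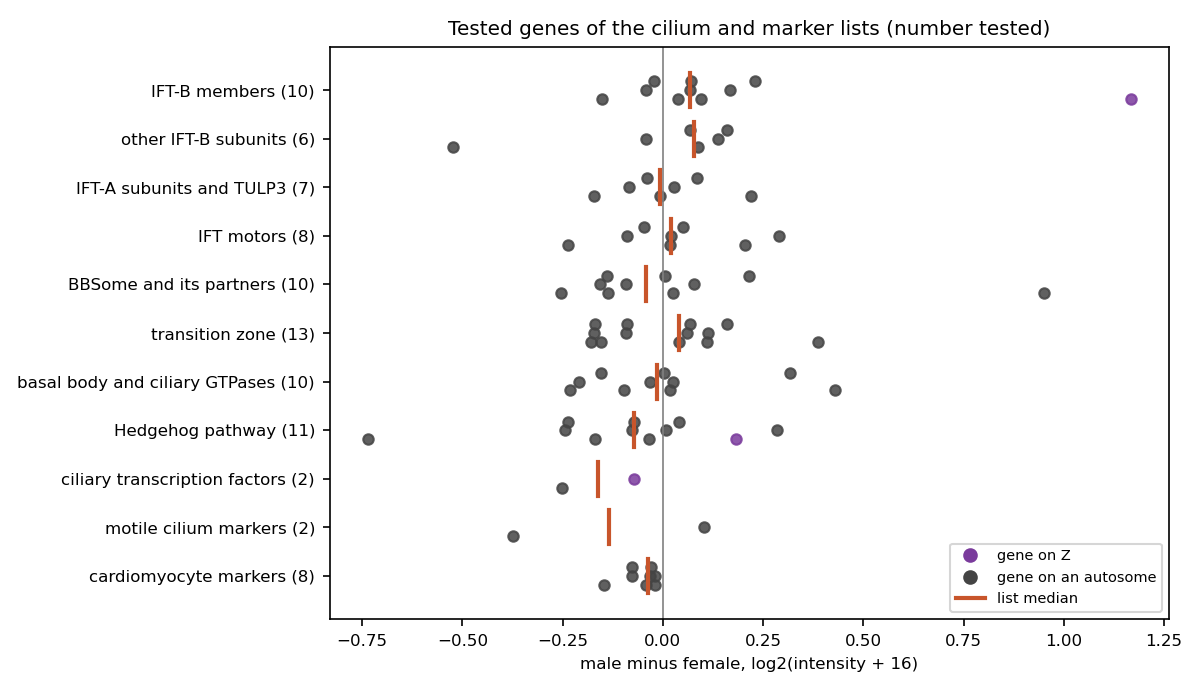
Male minus female difference (x axis, log2(intensity + 16)) of each tested gene, 1 row per list with the number tested, purple for genes on Z and the list median in orange. IFT74 lies at 1.17, apart from the other members between -0.15 and 0.23, and list medians lie between -0.16 and 0.08. The BBSome row includes LZTFL1, which passed the filter through its male pools.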

How the data were processed

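RNA of 10 heart pools was hybridised to 1 array each. The authors deposited 1 intensity per probe set and array, on a linear scale; the software behind it is not given in the sources used here. The 2% trimmed mean of each deposited array was 2500.54 to 2500.57, the lowest intensity was 0.724 and array correlations were 0.961 to 0.980, with 0 identical pairs. No detection call was used; precision is limited by the number of arrays.

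Intensities were taken as log2(intensity + 16). After 96 control probe sets were left out, the dimmest 40% by mean log2 value (under 363 intensity units) were left out too. The remaining 23063 probe sets were fitted with limma 3.58.1 in R 4.3.3 (lmFit, eBayes with a trend), male minus female, with Benjamini-Hochberg adjustment over all of them and a threshold of 0.05. Each gene was represented by the probe set of highest mean log2 value, and further probe sets are given beside it. Symbols came from the platform annotation, where 27178 probe sets had 1 symbol, 177 several and 11180 none. Symbols and chromosomes were updated through RefSeq genes of GRCg7b, used for names and gene order only. The fit was also run on simulated arrays with independent noise of equal spread in both sexes. That simulation does not cover pools of unequal spread or pools that share an origin.

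The members and gene lists were chosen with earlier results of these data known. The genes named are all members with their probe sets, in each other list the called genes or else the gene of largest difference, the 5 tested Z genes nearest IFT74 on each side, and the 3 genes of highest within-sex correlation with IFT74. That correlation was taken over deviations from the mean of each sex and tested by exact permutation within sex, adjusted over 9 partners. The permutation test was not planned. Outside the naming rules, IFT20, SCLT1, PTCH1 and RFX3 were named after their values were seen. SPAG6 and TNNT2 were named as markers, and LRRC19 for its position. Alternatives were another pseudocount (1 or 64), no filter or a 60% filter, quantile normalization, centring on autosomal genes, averaging all probe sets of a gene, pool letters as a block, and each pool left out in turn.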

Additional observations from a re-analysis of the deposited data

Results flagged for a closer look

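In 43 probe sets and 86 groups of 5 pools, 7 groups held a pool whose gap to the nearest other pool, as a share of the log2 range of the group, was above Dixon's critical value of 0.71. Chance gives such a gap in about 1 group in 20. Among the members, the gap share was 0.713 for IFT46 in males, where male E stood at 3164 and the others at 3987 to 4377. It was 0.727 for the second IFT172 probe set in females, where female A stood at 527 and the others at 348 to 390. Among listed genes, it was 0.864 for RFX2 in males, with male D at 1215 and the others at 615 to 676, and 0.786 for BOC in females, with female A at 135 and the others at 993 to 1675. Among Z neighbours, it was 0.749 for CORO2A in males, with male D at 292 and the others at 537 to 658, and 0.732 for PLAA in females, with female B at 6134 and the others at 4736 to 5076. It was 0.8 for MLLT1 in males, with male C at 8133 and the others at 7028 to 7236.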

How the results depend on the processing

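No partner was called under any of the 18 alternatives tried (limma), and the partner median stayed between 0.02 and 0.09. The number of genes called between the sexes was 197 to 227 with a pool left out and 216 to 237 under the other settings. The difference of IFT74 was 1.05 to 1.25 with a pool left out and 1.13 to 1.18 otherwise. When all probe sets of a gene were averaged, the sign turned for IFT88 (-0.029), IFT80 (0.030), IFT172 (-0.063) and MLLT1 (-0.26). For IFT88, IFT80 and IFT172 the average took in a further probe set of the other sign, at -0.18, 0.10 and -0.22. The IFT172 one passed the filter through its female pools. Why probe sets of a gene differed was not tested. With a pool left out, IFT80 ran from -0.10 to 0.040, IFT22 from -0.12 to 0.033 and CORO2A from -0.093 to 0.28, so the signs of these small differences turned. The within-sex correlation of IFT74 with IFT80 passed after adjustment under quantile normalization (r = 0.85, exact permutation, adjusted p = 0.0275) and without male D (r = 0.88, adjusted p = 0.0125), and under no other of the 15 settings tried. Without a female pool its adjusted p was 0.143 to 0.220, the highest without female A (r = 0.78). These alternatives were chosen after seeing the data.

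With the pool letters as a replicate block, 225 genes and 0 partners were called, and the block changed no call of a named gene. Same-letter pools had correlated deviations of 0.01 to 0.22, over 0.1 for letters A, D and E but not for B and C. For A, D and E the male and the female pool were each the best match of the other, and the best match of male B was female B. The best match of female B was male E, that of male C female B and that of female C male D. The labels give the letters no shared origin, and whether same-letter pools had one was not tested. Some dim named genes were left out by the 60% filter, and LZTFL1 by 4 of the fits without a pool. The 5 pools of each sex limit what could be detected: partner intervals reached up to 0.50 for the probe sets read for their genes. Among the further tested partner probe sets, intervals reached up to 0.99, for the third IFT52 probe set, and 0.73 for the second IFT81 probe set.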
